A study of Homo sapiens with 12 samples.

Results

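Semaphorins, plexins, neuropilins, Eph receptors and ephrins were examined in Calu-6 cells after knockdown of *LAPTM4B* and after serum withdrawal. A gene was included where a row of the array table carried its symbol and no other, by name pattern: class 3 to 7 semaphorins, class A to D plexins, *NRP1* and *NRP2*, and the EphA, EphB, ephrin-A and ephrin-B genes. Of the 18417 genes with such a row, 51 were members, on 54 of the 19460 rows that carried 1 symbol. *EPHA10*, *NRP2* and *SEMA4D* had 2 rows each, and the row with the higher mean over the 12 arrays stood for the gene. The members were 19 semaphorins (7 secreted class 3 genes and 12 membrane-bound ones), 9 plexins, 2 neuropilins, 13 Eph receptors (9 EphA and 4 EphB) and 8 ephrins (5 ephrin-A and 3 ephrin-B).

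Calu-6 is an established human lung cancer cell line. The cells received a Dharmacon SMARTpool of control scrambled siRNA (siControl) or a pool against *LAPTM4B* (siLAPTM4B), a lysosomal membrane protein gene, with Lipofectamine RNAiMAX. After one day they were kept in DMEM/F12 with 10% FBS or moved to the same medium with 0% FBS (serum-starved), and total RNA was taken 48 h later (72 h from transfection). There were 3 Affymetrix Human Gene 1.0 ST arrays for each of the 4 conditions, from independent transfections of this one line, so p-values measure the spread between transfections. Every group carried an siRNA pool, and no untransfected cells and no second, separate siRNA entered the comparisons.

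Semaphorins are ligands that steer migrating cells and growing axons, most often by repulsion. Class 3 semaphorins are secreted and mostly bind a neuropilin, which passes the signal on through a class A plexin, whereas *SEMA3E* binds PLXND1 directly and the membrane-bound classes bind plexins without a neuropilin. *SEMA7A* is held at the membrane by a lipid anchor and also binds an integrin. Plexins act inside the cell as switches of small Ras-like GTPases. Eph receptors are receptor tyrosine kinases whose ligands, the ephrins, sit on the neighbouring cell: ephrin-A is held by a lipid anchor and mostly binds EphA, and ephrin-B spans the membrane and mostly binds EphB. Signals run into both cells on contact, and both systems are known in epithelium and in carcinoma for control of cell sorting, adhesion and motility.

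Values are log2 signals normalized by RMA, and a difference of 1 on this scale is a factor of 2. Since probes bind with different strength, a level is set only against the same gene in other groups. The lower quartile of an array lay between 6.83 and 6.92, the median between 8.46 and 8.48 and the upper quartile between 9.97 and 10.04. *EPHA3*, *EPHA5*, *EPHA6*, *EPHA7* and *PLXNC1* were below 6.83 on every array, where a change is hard to read. *LAPTM4B* itself stood at 11.94, 11.87 and 11.93 in serum-starved siControl cells and at 10.45, 10.50 and 10.54 after siLAPTM4B, and at 11.76, 11.75 and 11.80 against 10.01, 10.04 and 9.99 with 10% FBS. This is 0.373 and 0.297 of the control level (limma, adjusted p = 8.62e-06 and 6.43e-07). The exact two-sided permutation test of 3 arrays against 3 gave p = 0.1 for both, which is the smallest p it allows. Of the epithelial markers *KRT8* and *KRT18* were above the upper quartile on all arrays, while *CDH1* and *KRT19* were below the median. The mesenchymal markers *VIM* and *FN1* were above the upper quartile on all arrays too, and *CDH2* was below the median. None of the endothelial, leukocyte or fibroblast markers was above the upper quartile on all arrays.

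Serum withdrawal in siControl cells changed 24 of the 51 members (47.1%), 16 higher and 8 lower without serum, where 26% of all rows were called (13.2% higher and 12.9% lower). A gene was called at a limma p under 0.05 after Benjamini-Hochberg adjustment over all 19460 rows. After siLAPTM4B it changed 25 members (49%), 16 higher and 9 lower, beside 20.7% of all rows (9.74% higher and 11% lower). The same 14 members rose in both, *EFNA2*, *EPHA2*, *EPHA4*, *EPHB1*, *EPHB4*, *EPHB6*, *NRP1*, *PLXNA2*, *PLXNA3*, *PLXNB1*, *PLXNB3*, *SEMA3E*, *SEMA4D* and *SEMA7A*, which is 87.5% of each list. The 7 that fell in both were *EFNA5*, *EFNB2*, *NRP2*, *SEMA4G*, *SEMA6A*, *SEMA6B* and *SEMA6D* (87.5% of the siControl list and 77.8% of the siLAPTM4B list). The 2 comparisons have no array in common. How many of all called rows were shared between them was not counted, so this sharing is not shown to be particular to the members. At an unadjusted p under 0.01, the limit that the study used for knockdown, 23 and 25 members passed, beside 24.4% and 20.4% of all rows. In a population of cells, fewer cells of a kind and less RNA per cell cannot be told apart.

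**Figure D1:**
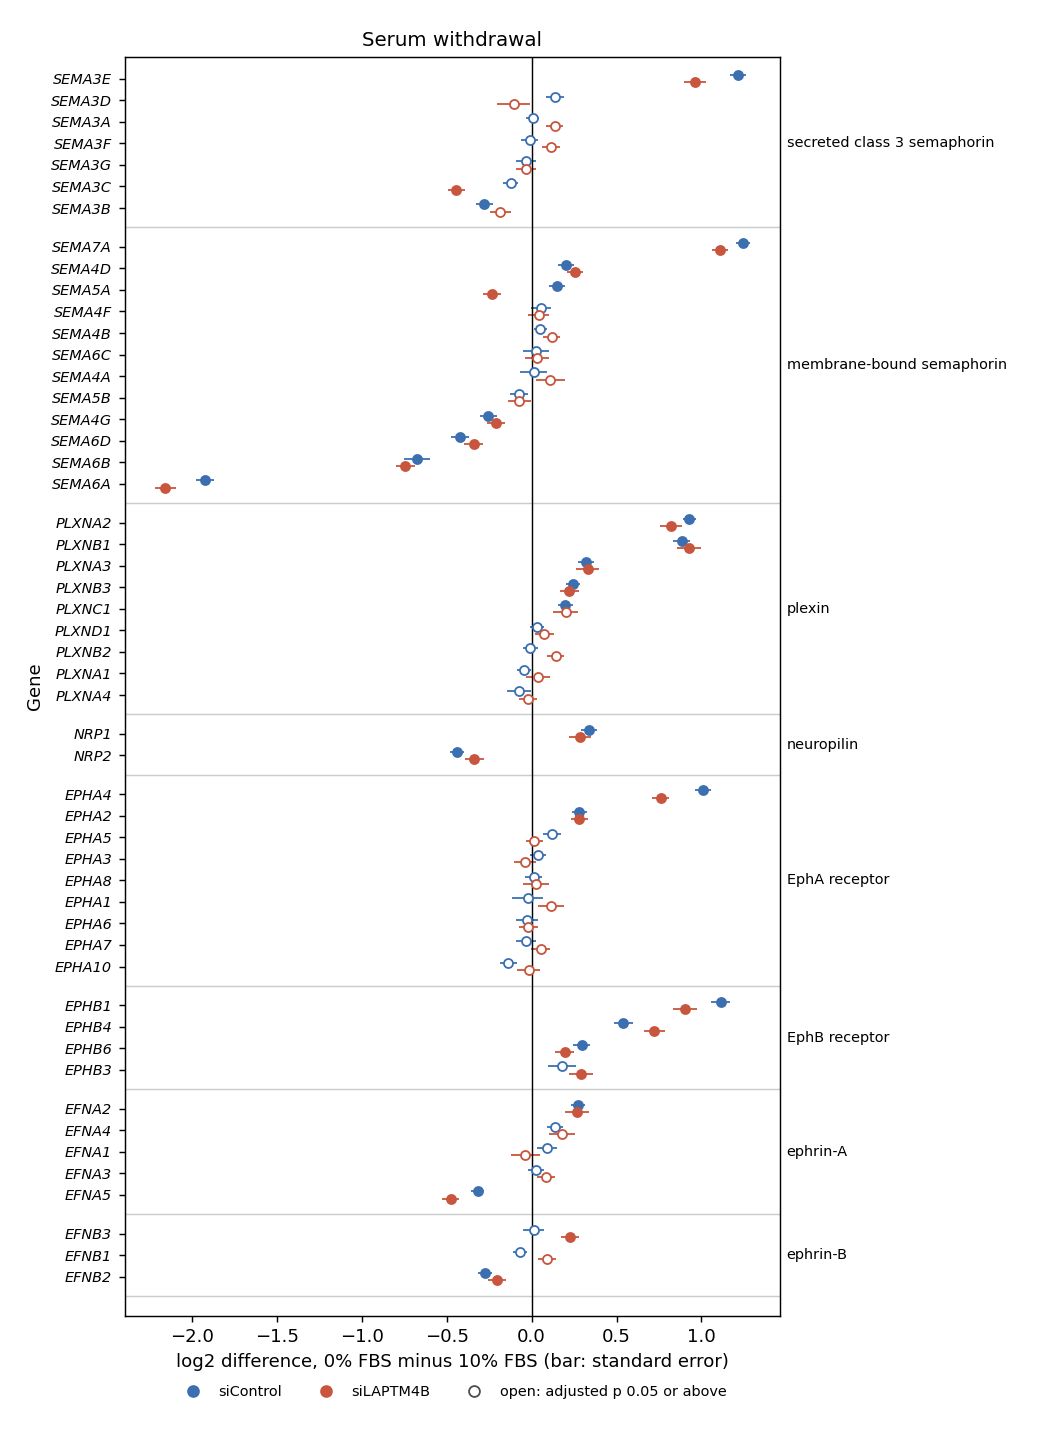
log2 difference of each of the 51 members between 0% FBS and 10% FBS (horizontal axis, bar: standard error from limma), by gene family, in siControl (blue) and siLAPTM4B cells (red), 3 arrays per group. Filled points passed an adjusted p under 0.05. *SEMA6A* lies far to the left at -1.92 and -2.16, no filled point among plexins and Eph receptors lies left of 0, and *SEMA5A* lies right of 0 in siControl and left of 0 in siLAPTM4B cells.

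Among the ligands, the secreted *SEMA3E* rose. With 10% FBS the siControl arrays stood at 8.02, 7.99 and 8.08, and without serum at 9.30, 9.25 and 9.18. The groups were more than 1 log2 unit apart, a 2.32-fold increase (log2 difference 1.21, SE 0.05, limma adjusted p = 1.38e-06). After siLAPTM4B the levels were 8.56, 8.76 and 8.58 with serum and 9.54, 9.60 and 9.64 without, a 1.95-fold increase (0.96, SE 0.06, adjusted p = 6.42e-06). Of the other class 3 genes *SEMA3B* fell in siControl cells (-0.28, SE 0.05, adjusted p = 0.00534) and measured -0.18 after siLAPTM4B (adjusted p = 0.0638). *SEMA3C*, known to promote migration of neural crest and tumour cells, fell after siLAPTM4B (-0.44, SE 0.05, adjusted p = 0.000183), while its difference in siControl cells was -0.12 (adjusted p = 0.0826). *SEMA3A*, *SEMA3D*, *SEMA3F* and *SEMA3G* passed in neither.

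The membrane-bound semaphorins went both ways. *SEMA7A* was at 9.04, 9.07 and 9.11 in siControl cells with serum and at 10.28, 10.33 and 10.35 without, a 2.37-fold increase (1.24, SE 0.04, adjusted p = 6.05e-07). After siLAPTM4B it went from 9.31, 9.31 and 9.29 to 10.38, 10.43 and 10.43 (1.11, SE 0.05, adjusted p = 4.66e-07). These were the highest estimates of all members in either cell population. *SEMA6A*, a transmembrane ligand of class A plexins, moved in the opposite direction and further than any other member. It read 10.40, 10.55 and 10.51 with serum and 8.55, 8.53 and 8.62 without in siControl cells, which leaves 0.264 of the level (-1.92, SE 0.05, adjusted p = 2.86e-07). In siLAPTM4B cells 10.47, 10.46 and 10.33 stood against 8.18, 8.27 and 8.35, which leaves 0.224 (-2.16, SE 0.06, adjusted p = 6.32e-08). Its relatives *SEMA6B* (-0.67 and -0.74) and *SEMA6D* (-0.42 and -0.34) fell in both, so that 3 of the 4 class 6 genes were called lower, and *SEMA6C* measured 0.03 in both. *SEMA6D* read 6.38 to 6.68 on the serum-starved arrays, below the lower quartile of every array, so the size of its change is hard to read. *SEMA4G* fell by 0.25 and 0.21, and *SEMA4D*, known for plexin B1 binding, rose by 0.20 and 0.26. A further row of *SEMA4D* was called in neither (-0.09, adjusted p = 0.215, and 0.18, adjusted p = 0.074), and the mean over both rows was not called in siControl cells.

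**Figure D2:**
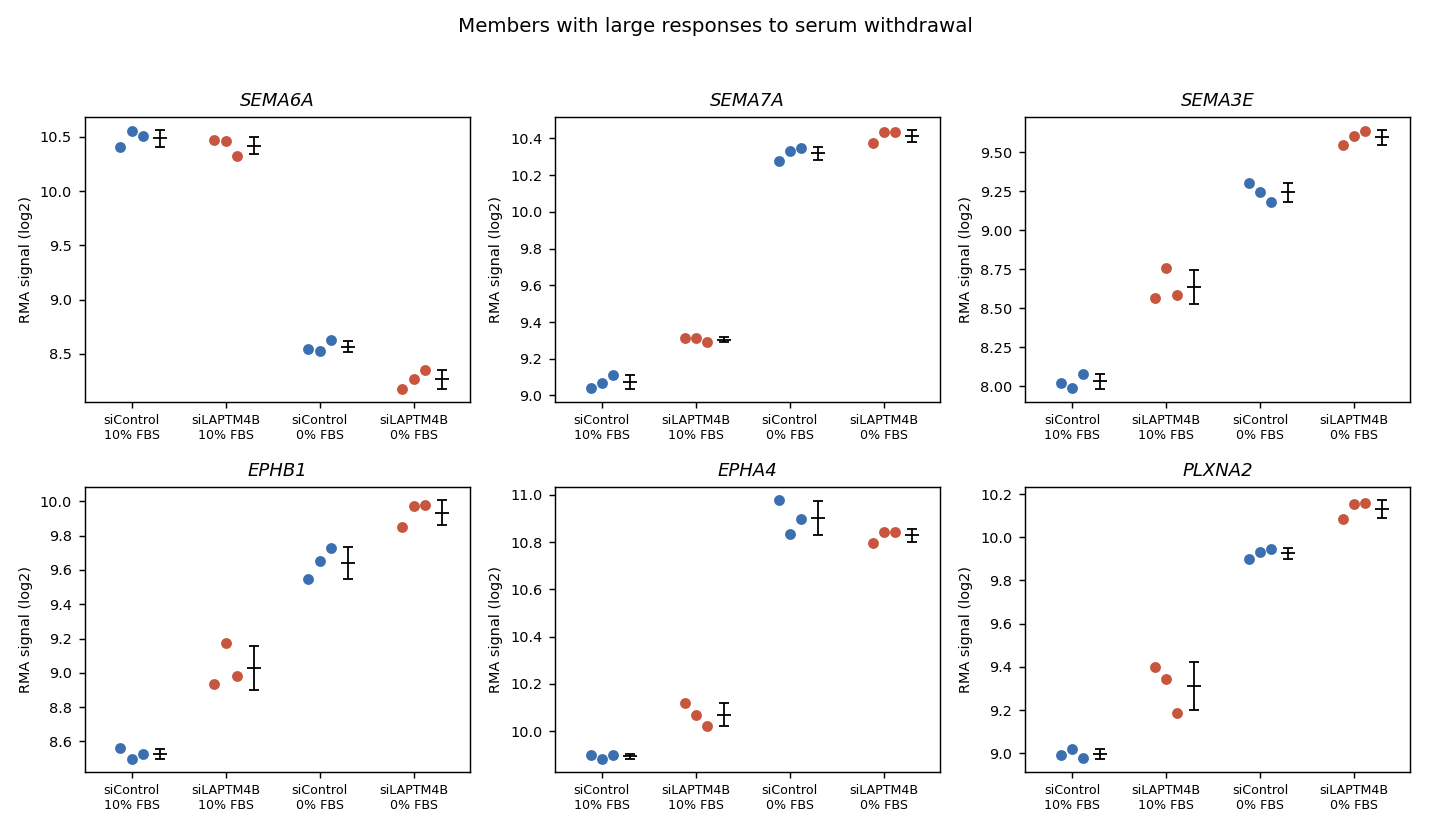
RMA log2 signal (vertical axis, each panel with its own range) of 6 members on each of the 12 arrays, siControl in blue and siLAPTM4B in red, with the mean and SD of the 3 arrays in black beside the points. *SEMA6A* is lower on every serum-starved array than on any array with 10% FBS, and the other 5 genes are higher on every serum-starved array.

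Plexins, the receptors, rose or were not called. Of the 9 genes 5 rose in siControl cells (*PLXNA2*, *PLXNA3*, *PLXNB1*, *PLXNB3* and *PLXNC1*) and 4 after siLAPTM4B, the same without *PLXNC1*, and none was called lower. The median plexin difference was 0.20 in both, beside -0.01 over all genes in siControl cells. In both cases the median is the value of *PLXNC1*, one of the dim genes named above. *PLXNA2*, which partners neuropilins and also binds *SEMA6A*, read 8.99, 9.02 and 8.98 with serum and 9.90, 9.93 and 9.95 without (0.93, SE 0.04, adjusted p = 1.72e-06). Its siLAPTM4B arrays moved from 9.40, 9.34 and 9.19 to 10.08, 10.15 and 10.16 (0.82, SE 0.06, adjusted p = 1.78e-05). *PLXNB1*, the receptor of *SEMA4D*, went from 8.24, 8.36 and 8.35 to 9.24, 9.16 and 9.20, a 1.84-fold increase (0.88, SE 0.05, adjusted p = 7.04e-06). It rose 1.90-fold after siLAPTM4B (0.93, SE 0.07, adjusted p = 1.58e-05). *PLXNA3* rose by 0.32 and 0.33 and *PLXNB3* by 0.24 and 0.22. *PLXNC1*, a receptor of *SEMA7A*, was at the dim end of the arrays (0.20 in both, adjusted p = 0.0122 and 0.0852). *PLXNA1*, *PLXNA4*, *PLXNB2* and *PLXND1*, the receptor of *SEMA3E*, lay between -0.07 and 0.14 and were not called.

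The neuropilins moved apart. *NRP1*, which also binds VEGF, rose from 10.95, 11.07 and 11.09 to 11.39, 11.37 and 11.37 in siControl cells (0.34, SE 0.05, adjusted p = 0.0014), and by 0.28 after siLAPTM4B (SE 0.06, adjusted p = 0.012). *NRP2* fell from 8.51, 8.49 and 8.57 to 8.05, 8.11 and 8.09 (-0.44, SE 0.04, adjusted p = 0.00016), and by 0.34 after siLAPTM4B (SE 0.06, adjusted p = 0.00254). For both genes no serum-starved array overlapped an array with serum of the same siRNA. A further *NRP2* row was not called (-0.21, adjusted p = 0.0711, and -0.28, adjusted p = 0.107).

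Eph receptors were likewise called higher or not at all. Of the 13 genes 5 rose in siControl cells (*EPHA2*, *EPHA4*, *EPHB1*, *EPHB4* and *EPHB6*), and these and *EPHB3* rose after siLAPTM4B. *EPHB1* stood at 8.56, 8.50 and 8.53 with serum and at 9.54, 9.65 and 9.73 without in siControl cells (1.11, SE 0.05, adjusted p = 3.46e-06). After siLAPTM4B it was at 8.93, 9.18 and 8.98 with serum and at 9.85, 9.98 and 9.98 without (0.90, SE 0.07, adjusted p = 2.12e-05). *EPHA4*, which binds ephrins of both classes, went from 9.90, 9.88 and 9.90 to 10.98, 10.84 and 10.90, a 2.02-fold increase (1.01, SE 0.05, adjusted p = 2.91e-06). It rose 1.69-fold after siLAPTM4B, from 10.12, 10.07 and 10.02 to 10.80, 10.84 and 10.84 (0.76, SE 0.05, adjusted p = 6.42e-06). *EPHB4*, the receptor of ephrin-B2 in vessels and epithelium, rose 1.45-fold and 1.65-fold (0.54 and 0.72, adjusted p = 0.000192 and 3.49e-05). *EPHA2*, often abundant in carcinoma, rose by 0.28 in both (adjusted p = 0.00208 and 0.0034). The kinase-inactive *EPHB6* rose by 0.29 and 0.20. Of the 7 remaining EphA genes none was called, and 4 of them are among the dim genes named above.

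Ephrins went both ways. *EFNA5* fell from 11.01, 10.97 and 10.99 to 10.67, 10.66 and 10.68 in siControl cells (-0.32, SE 0.04, adjusted p = 0.000462) and by 0.48 after siLAPTM4B (SE 0.05, adjusted p = 0.000132). *EFNB2* fell by 0.27 and 0.20 (adjusted p = 0.00142 and 0.0197), in the same arrays in which its receptor *EPHB4* was higher. *EFNA2* rose by 0.27 in both (adjusted p = 0.00196 and 0.0243), and *EFNB3* rose after siLAPTM4B alone by the call (0.23, adjusted p = 0.0137), with 0.01 in siControl cells and no call of the difference between them (adjusted p = 0.347).

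Deviations of arrays with the same replicate number correlated by 0.37, 0.13 and 0.20 between the siControl media. Whether the number pairs arrays was not tested. With the number as a block all 24 calls remained and 28 members were called, beside 28.8% of all rows. The 4 added were *EFNA4* (0.14, adjusted p = 0.0467), *EPHA10* (-0.14, adjusted p = 0.0398), *EPHB3* (0.18, adjusted p = 0.0467) and *SEMA3D* (0.14, adjusted p = 0.0441), all by limma. The further row of *EPHA10* had the opposite sign (0.13, adjusted p = 0.0951, without the block). Of the 24 siControl calls 21 held under every alternative setting. Without siControl replicate 2 at 0% FBS *PLXNC1*, *SEMA4D* and *SEMA5A* lost theirs (21 calls left, beside 19.3% of all rows). Of the 25 siLAPTM4B calls 16 held. *NRP1* and *PLXNA3* lost theirs with the methods' t-test alone. *EFNA2*, *EFNB2*, *EFNB3*, *EPHB3*, *EPHB6*, *PLXNB3* and *SEMA4G* lost theirs where single arrays were left out. Most often this was siLAPTM4B replicate 2 at 0% FBS (19 calls left, beside 13.9% of all rows). *EFNA2*, *EPHB3*, *EPHB6*, *PLXNB3* and *SEMA4G* also lost theirs in the fit of all rows and with the methods' t-test. *EPHB6* lost its call with the replicate block too. The weakest siControl call, *SEMA5A* (0.15, adjusted p = 0.0489), was lost under 8 of 14 settings, with leaving out any siControl array but replicate 2 with serum among them.

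The summed linear signal of 5 neuron markers (*SNAP25*, *SYP*, *RBFOX3*, *STMN2* and *SYT1*) moved with serum. It was 7786 to 7911 in siControl cells with 10% FBS and 12316 to 12896 without, and 7777 to 7831 against 12601 to 12892 after siLAPTM4B. A linear sum is set mostly by its brightest row, here *STMN2*, which ranged from 11.96 to 13.10 on the log2 scale over the 12 arrays. The ranges of *SNAP25* (10.50 to 10.79), *SYT1* (10.30 to 10.88), *SYP* (8.94 to 9.27) and *RBFOX3* (7.50 to 7.72) were narrower. *SNAP25*, *STMN2* and *SYT1* were above the upper quartile on all 12 arrays, and *RBFOX3* was below the median on all. The part of this shift in the member differences was not tested. Sums that were lower without serum, with no overlap in either siRNA condition, were those of 4 fibroblast markers (798 to 839 against 1022 to 1119 in siControl cells, 793 to 855 against 909 to 984 after siLAPTM4B) and of 6 epithelial markers (13369 to 13787 against 14670 to 14892, and 14711 to 15166 against 15616 to 16166). In siControl cells alone the groups also did not overlap for 3 mesenchymal markers (14848 to 15281 against 15460 to 15763) and 4 leukocyte markers (399 to 418 against 434 to 472). These sums too are set mostly by their brightest rows, and the part of these shifts was not tested either.

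Genes that work beside the members were taken from lists of signalling partners, and their counts stand beside 26% (siControl) and 20.7% (siLAPTM4B) of all rows called. Of 45 measured partners of semaphorins and plexins, 10 rose and 6 fell without serum in each siRNA condition. *VEGFA*, whose product competes for neuropilins, rose by 1.22 and 1.47 on the log2 scale. *DPYSL3*, a collapsin response mediator, rose by 0.84 and 0.83, *MICAL1*, a plexin-bound oxidase that takes actin apart, by 0.85 and 0.72, and *PLXDC2* by 0.73 and 1.12. *RRAS*, a GTPase that plexins switch off, fell by 0.36 and 0.39. Of 41 measured Eph and ephrin partners 13 rose and 1 fell in siControl cells, and 11 rose and 2 fell after siLAPTM4B. The adaptors *GRB10* (0.65 and 0.63) and *NCK2* (0.58 and 0.57) and the Rac regulator *CHN1* (0.58 and 0.55) rose, and *TIAM2* fell by 0.42 and 0.48. The median over the list was 0.04 in both, beside -0.01 over all genes. Of 32 slit, netrin and related genes 3 rose and 5 fell in each, with *ABLIM3* lowest (-1.62 and -1.20) and the netrin receptor *UNC5B* next (-0.76 and -0.67).

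Promoter windows of the members that moved together are shown so that their sequence can be set side by side. RefSeq (GRCh38.p14) windows, 250 bases before to 50 after the most upstream listed start of a gene, were matched for 45 of the 51 members. The 4 members shown first rose by about 1 or more on the log2 scale without serum in siControl cells, and *SEMA3C*, which fell after knockdown, is set beside them. They lie at chr7:83649090-83649389 (minus strand), chr15:74433909-74434208 (minus strand), chr3:134795010-134795309 (plus strand), chr2:221574153-221574452 (minus strand) and chr7:80922340-80922639 (minus strand). Each is written 5' to 3' on the strand of the gene, and capitals mark matches to the hypoxia response core ACGTG on either strand.
SEMA3E: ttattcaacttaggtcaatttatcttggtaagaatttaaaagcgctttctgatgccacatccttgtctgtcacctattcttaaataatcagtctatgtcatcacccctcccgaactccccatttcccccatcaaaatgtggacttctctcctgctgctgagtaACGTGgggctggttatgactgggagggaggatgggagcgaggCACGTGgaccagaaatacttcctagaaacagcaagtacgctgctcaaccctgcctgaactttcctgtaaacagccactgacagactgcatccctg
SEMA7A: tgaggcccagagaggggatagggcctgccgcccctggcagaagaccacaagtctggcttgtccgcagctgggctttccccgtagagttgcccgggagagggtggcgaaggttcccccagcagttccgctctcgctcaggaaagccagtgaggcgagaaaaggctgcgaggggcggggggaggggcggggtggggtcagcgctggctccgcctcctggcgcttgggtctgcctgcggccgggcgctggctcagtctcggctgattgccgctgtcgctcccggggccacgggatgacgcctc
EPHB1: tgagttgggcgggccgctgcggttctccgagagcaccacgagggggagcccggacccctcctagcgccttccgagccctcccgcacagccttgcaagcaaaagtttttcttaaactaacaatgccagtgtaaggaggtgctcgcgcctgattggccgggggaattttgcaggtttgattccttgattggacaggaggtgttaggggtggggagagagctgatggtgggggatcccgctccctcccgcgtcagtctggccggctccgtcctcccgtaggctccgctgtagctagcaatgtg
EPHA4: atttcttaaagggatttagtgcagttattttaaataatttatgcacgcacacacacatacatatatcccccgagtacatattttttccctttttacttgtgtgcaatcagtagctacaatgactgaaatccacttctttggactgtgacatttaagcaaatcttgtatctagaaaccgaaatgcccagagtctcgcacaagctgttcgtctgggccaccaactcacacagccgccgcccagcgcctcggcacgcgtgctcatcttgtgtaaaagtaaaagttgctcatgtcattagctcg
SEMA3C: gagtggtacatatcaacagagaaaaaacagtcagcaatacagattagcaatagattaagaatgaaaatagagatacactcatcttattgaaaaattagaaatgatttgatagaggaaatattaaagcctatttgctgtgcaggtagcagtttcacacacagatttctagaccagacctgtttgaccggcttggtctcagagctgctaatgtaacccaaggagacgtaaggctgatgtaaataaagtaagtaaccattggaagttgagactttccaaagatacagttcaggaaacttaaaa
*SEMA3E* held 3 matches, 2 of which overlap because CACGTG reads the same on both strands, and the other 4 windows held none. The core was in 8 of the 45 member windows (17.8%) and in 21.6% of 27305 windows of all genes. Bases G and C made up 47.3% of the *SEMA3E* window, 70% of that of *SEMA7A*, 61.3% of that of *EPHB1*, 43% of that of *EPHA4* and 36% of that of *SEMA3C*, so the genes that rose together did not share a base composition. The AP-1 site TGANTCA was in 1 member window (2.22%, *PLXNC1*, against 7.76% of all), the antioxidant response core TGACNNNGC in 6 (13.3% against 13.6%), the TEAD site GGAATG in 3 (6.67% against 14%), and the CArG box in 0 (1.29% of all). None of these 4 was in the windows printed above. Matches were counted on both strands, and they describe letters only.

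*SEMA3E*, *SEMA3C*, *SEMA3A* and *SEMA3D* all lie on chromosome 7. The first and the second moved in opposite directions after siLAPTM4B.

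Knockdown of *LAPTM4B* in serum-starved cells changed 6 of the 51 members (11.8%), beside 2.33% of all rows. *EPHB1*, *EPHB4* and *SEMA3E* rose, where 0.591% of all rows did, and *EFNA5*, *SEMA3C* and *SEMA6A* fell, where 1.74% did. With 10% FBS it changed 8 members (15.7%), beside 4.08% of all rows. *EPHA2*, *EPHB1*, *PLXNA2*, *SEMA3E* and *SEMA7A* rose, where 1.99% of rows did, and *EFNB1*, *SEMA3C* and *SEMA6D* fell, where 2.09% did. Shared between the media were *EPHB1* and *SEMA3E* among those that rose (66.7% of the serum-starved list and 40% of the other) and *SEMA3C* among those that fell (33.3% of each). The shared part of all called rows was not counted here either. At the unadjusted p under 0.01, 11 members passed without serum (6.63% of all rows) and 10 with serum (8.09%).

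**Figure D3:**
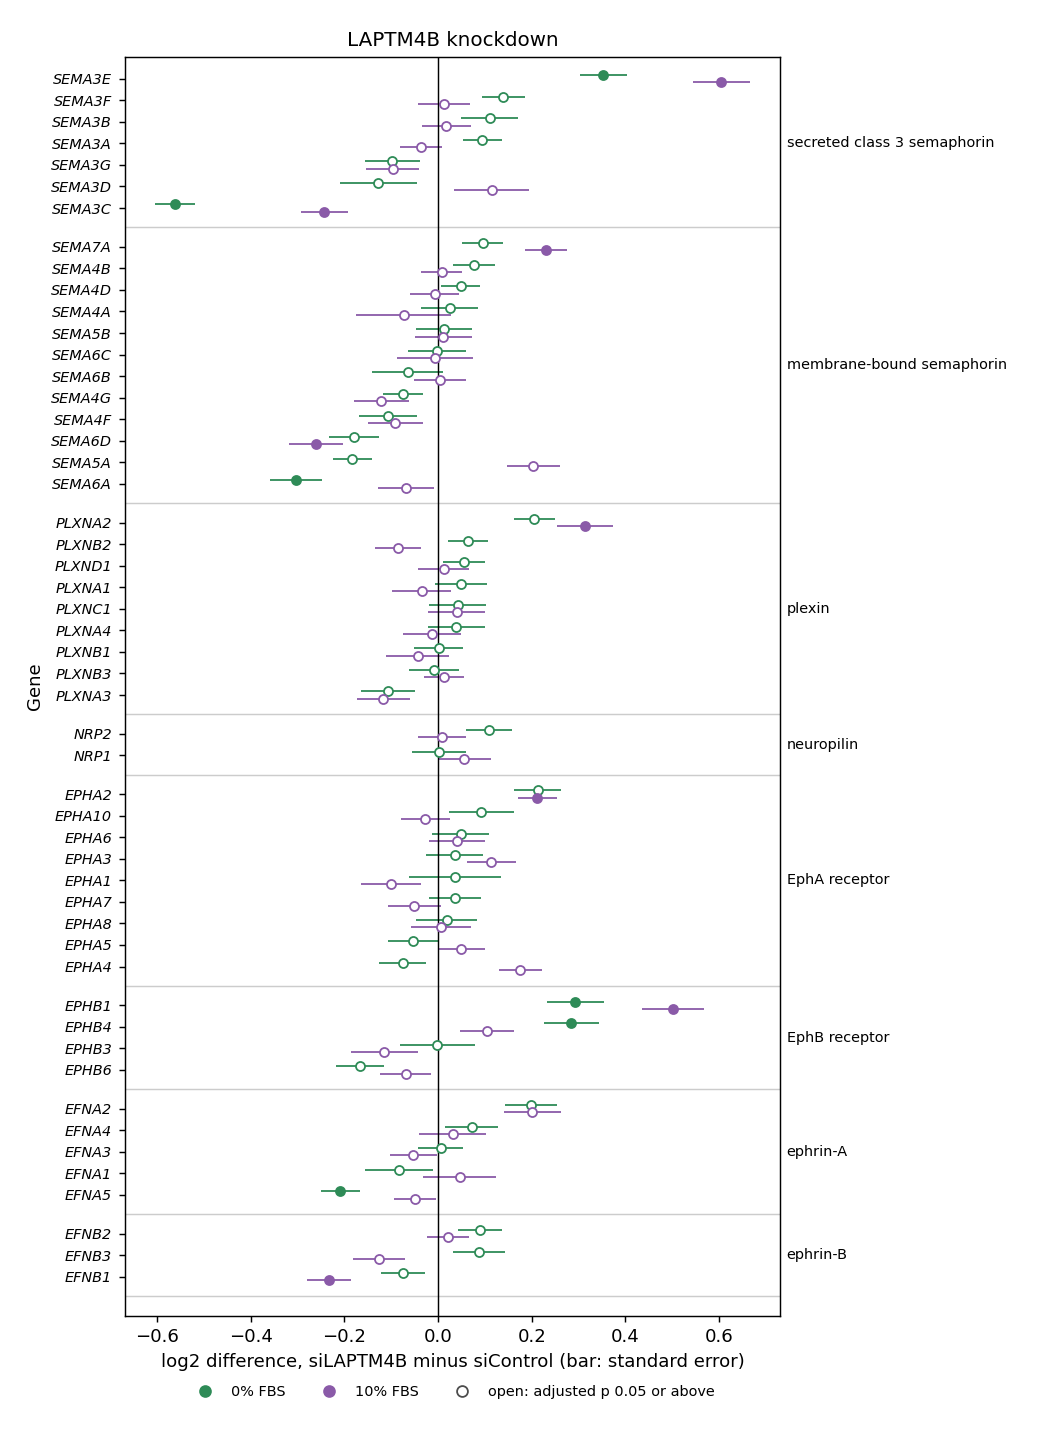
log2 difference of each of the 51 members between siLAPTM4B and siControl cells (horizontal axis, bar: standard error from limma), by gene family, at 0% FBS (green) and 10% FBS (purple), 3 arrays per group. Filled points passed an adjusted p under 0.05: 6 at 0% FBS and 8 at 10% FBS, with *SEMA3E* and *EPHB1* right of 0 and *SEMA3C* left of 0 in both media.

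*SEMA3C* fell in both media, and furthest of the members without serum. With serum *SEMA6D* had a slightly lower estimate. In serum-starved cells the siControl arrays read 11.57, 11.52 and 11.58 and the siLAPTM4B arrays 10.96, 11.01 and 11.02. The groups did not overlap, and 0.677 of the control level was left (-0.56, SE 0.04, limma adjusted p = 0.00123). With 10% FBS 11.65, 11.64 and 11.74 stood against 11.39, 11.46 and 11.46, which is 0.845 of control (-0.24, SE 0.05, adjusted p = 0.0338). Without serum this was the one member call that held under every alternative setting, with adjusted p up to 0.0319.

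*SEMA3E* showed the largest rise. Without serum it went from 9.30, 9.25 and 9.18 in siControl to 9.54, 9.60 and 9.64 in siLAPTM4B cells, 1.28-fold (0.35, SE 0.05, adjusted p = 0.0109). With serum it went from 8.02, 7.99 and 8.08 to 8.56, 8.76 and 8.58, 1.52-fold (0.61, SE 0.06, adjusted p = 0.00215). The siControl arrays in these comparisons are those of the serum comparison above. Its receptor gene *PLXND1* measured 0.05 and 0.01 after knockdown and was not called. The class 3 genes other than *SEMA3C* and *SEMA3E* were not called in either medium.

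Of the membrane-bound semaphorins, *SEMA6A* fell further in serum-starved cells, from 8.55, 8.53 and 8.62 to 8.18, 8.27 and 8.35 (-0.30, SE 0.06, adjusted p = 0.031), and measured -0.07 with serum (adjusted p = 0.633). *SEMA7A* rose with serum from 9.04, 9.07 and 9.11 to 9.31, 9.31 and 9.29 (0.23, SE 0.04, adjusted p = 0.0272), and measured 0.10 without (adjusted p = 0.359). *SEMA6D* fell with serum from 7.03, 7.18 and 7.01 to 6.77, 6.85 and 6.82 (-0.26, SE 0.06, adjusted p = 0.0416). These levels lie near the lower quartile of the arrays. The *SEMA7A* and *SEMA6D* calls were lost on omission of any 1 of the 6 arrays, and that of *SEMA6A* on omission of any but siLAPTM4B replicate 3. All 3 calls were also lost with the methods' t-test and in the fit of all rows.

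Among the receptors, *EPHB1* rose 1.23-fold without serum, from 9.54, 9.65 and 9.73 to 9.85, 9.98 and 9.98 (0.29, SE 0.06, adjusted p = 0.0487), and 1.42-fold with serum, from 8.56, 8.50 and 8.53 to 8.93, 9.18 and 8.98 (0.50, SE 0.07, adjusted p = 0.00605). *EPHB4* rose without serum from 10.22, 10.05 and 10.09 to 10.34, 10.45 and 10.43 (0.29, SE 0.06, adjusted p = 0.0468) and measured 0.10 with serum (adjusted p = 0.403). *EPHA2* measured 0.21 in both media and passed with serum (adjusted p = 0.0311), not without (0.0755). Its arrays with serum stood at 10.45, 10.45 and 10.46 in siControl and at 10.68, 10.65 and 10.67 in siLAPTM4B cells. *PLXNA2* likewise measured 0.21 without serum (adjusted p = 0.0544) and 0.31 with serum (SE 0.06, adjusted p = 0.0273), from 8.99, 9.02 and 8.98 to 9.40, 9.34 and 9.19. The other 8 plexins and both neuropilins lay between -0.12 and 0.11 in both media and were not called. The further *NRP2* row measured 0.24 without serum (adjusted p = 0.294) and 0.31 with serum (adjusted p = 0.109), the latter with all siLAPTM4B arrays above all siControl arrays, and was not called either.

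Of the ephrins, *EFNA5* fell without serum from 10.67, 10.66 and 10.68 to 10.42, 10.47 and 10.50 (-0.21, SE 0.04, adjusted p = 0.0458). *EFNB1*, a ligand of *EPHB1*, fell with serum from 8.86, 8.81 and 8.80 to 8.61, 8.62 and 8.54 (-0.23, SE 0.05, adjusted p = 0.0307). The other 6 ephrins were not called in either medium.

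Many of the knockdown calls depended on single arrays. Those of *EFNA5* and *EPHB1* without serum were lost on omission of any 1 array of the comparison. So were those of *EFNB1*, *EPHA2*, *SEMA3C*, *SEMA6D* and *SEMA7A* with serum. Leaving out any 1 of the 6 arrays of a comparison left 1 to 3 member calls without serum, beside 0.606% to 1.49% of all rows. It left 1 without replicate 2 of siControl or of siLAPTM4B. With serum 2 to 3 were left, beside 1.17% to 2.48%, and *SEMA3E* and *EPHB1* kept theirs under every such omission. Without serum *SEMA3E* lost its call where either replicate 2 was left out (adjusted p up to 0.0899 over the alternatives). The summed linear signal of the 6 epithelial markers was higher after siLAPTM4B, at 14711 to 15166 against 13369 to 13787 in siControl cells without serum and at 15616 to 16166 against 14670 to 14892 with serum. This sum is set mostly by its brightest rows, *KRT8* and *KRT18* (means 12.89 and 12.23 over the 12 arrays). The markers did not all move together: without serum the study listed *KRT8* as higher and *KRT7* as lower after knockdown. The fibroblast sum was lower with serum (909 to 984 against 1022 to 1119), and the leukocyte sum was higher without serum (424 to 458 against 399 to 418). The part of these sums in the differences was not tested.

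Of the 45 partners of semaphorins and plexins 1 rose and 2 fell after knockdown without serum, and 1 rose and 4 fell with serum, beside 2.33% and 4.08% of all rows called. *DPYSL3* rose in both media (0.28 and 0.29). *L1CAM*, an adhesion partner of *NRP1*, fell in both (-0.30 and -0.33), as did *PLXDC2* (-0.33 and -0.71), and *VEGFA* (-0.34) and the Src-family kinase *FYN* (-0.36) fell with serum. Of the Eph and ephrin partners 0 of 41 were called without serum by limma (9 had an unadjusted p under 0.05), and 2 fell with serum, *FYN* and *TIAM1* (-0.30). The slit and netrin list had 3 genes higher without serum (*FLRT3*, *SLIT1* and *UNC5A*), and 2 higher (*ABLIM1* and *FLRT3*) and 1 lower (*ABLIM3*, -0.53) with serum.

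Whether the effect of knockdown differed between media was fitted over all 12 arrays as the log2 difference without serum minus that with serum. *LAPTM4B* itself was called, with a smaller fall without serum (-1.42) than with serum (-1.75). This difference was 0.33 (SE 0.06, limma adjusted p = 0.0345), so the depth of knockdown was not the same in the 2 media. The part of this in the member differences was not tested. Of the 51 members 1 was called, *SEMA5A*, beside 0.262% of all rows (0.19% lower). *SEMA5A* is a transmembrane semaphorin with thrombospondin repeats. Its siControl arrays stood at 9.98, 10.12 and 10.02 with serum and at 10.17, 10.19 and 10.21 without. Its siLAPTM4B arrays stood at 10.32, 10.21 and 10.21 with serum and at 9.97, 10.04 and 10.02 without. Knockdown measured -0.18 without serum and 0.20 with serum, both with groups that did not overlap and neither called on its own (adjusted p = 0.072 and 0.0934), and the difference was -0.39 (SE 0.07, adjusted p = 0.0403). Serum withdrawal accordingly raised *SEMA5A* in siControl cells (0.15) and lowered it in siLAPTM4B cells (-0.23, adjusted p = 0.0119).

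**Figure D4:**
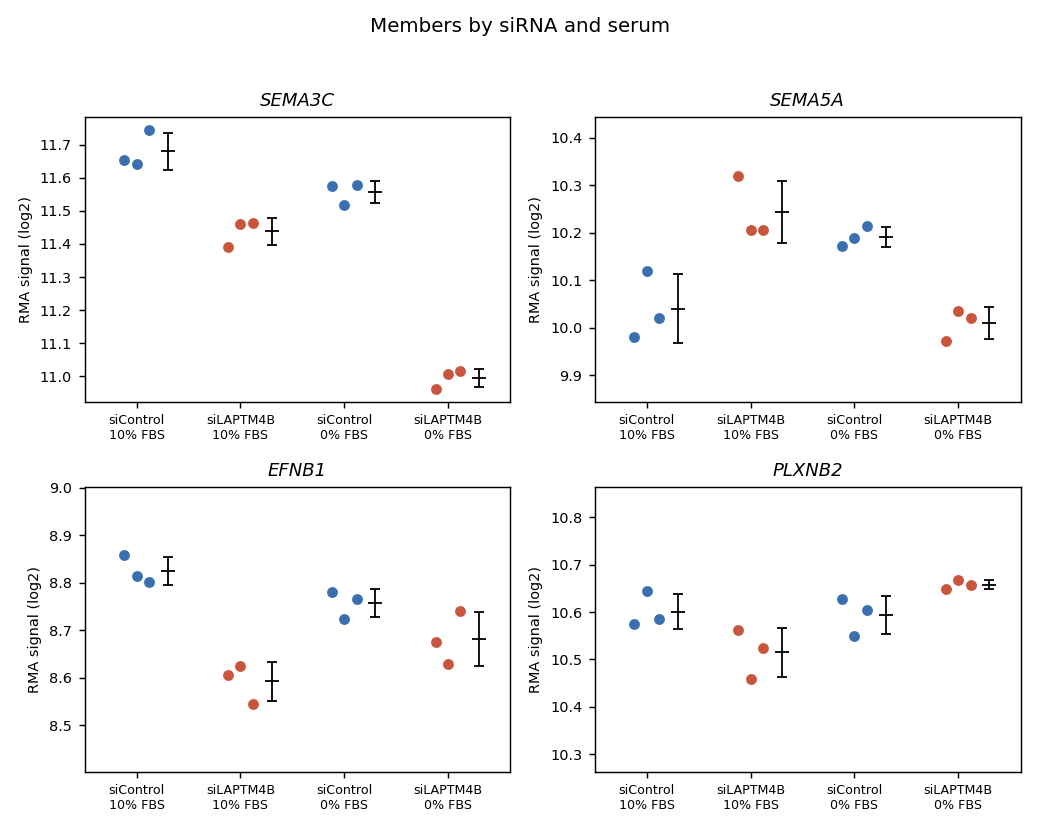
RMA log2 signal (vertical axis, each panel with its own range) of *SEMA3C*, *SEMA5A*, *EFNB1* and *PLXNB2* on each of the 12 arrays, siControl in blue and siLAPTM4B in red, with the mean and SD of the 3 arrays in black beside the points. *SEMA3C* is lowest after siLAPTM4B at 0% FBS (10.96 to 11.02), and *SEMA5A* is higher after siLAPTM4B at 10% FBS and lower at 0% FBS.

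The *SEMA5A* call was lost under 12 of 18 alternatives (adjusted p from 0.00358 to 0.11), with leaving out any 1 array except siControl replicate 2 with serum among them. *SEMA3C* had the next estimate (-0.32, SE 0.06, adjusted p = 0.0543), and was called with the replicate block (adjusted p = 0.0396). At an unadjusted p under 0.01, which 3.5% of all rows passed, 4 members did: *EPHA4*, *SEMA3C*, *SEMA3E* and *SEMA5A*, all with a negative difference. For *EPHA4* (-0.25, adjusted p = 0.148) and *SEMA3E* (-0.25, adjusted p = 0.26) the media were not shown to differ. Among the partner lists, the interaction was called for *ABLIM3* (0.42, adjusted p = 0.0342), and for 0 of the 45 semaphorin and plexin partners and 0 of the 41 Eph and ephrin partners by limma, of which 5 each had an unadjusted p under 0.05. The highest estimate of a member was that of *EFNB3* (0.21, adjusted p = 0.347).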

How the data were processed

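Total RNA of Calu-6 cells was measured on 12 Affymetrix Human Gene 1.0 ST arrays, 3 per group. The deposited log2 values had been made by the authors by RMA (background correction, quantile normalization, summary over probes) in BRB-ArrayTools v 4.3.0. The probe set level, library file and annotation version are not given in the sources used here. Quantile normalization makes the arrays alike in distribution, so a shift of all RNA cannot be seen. 0 value columns were left unmapped. By the platform annotation 19460 rows carry 1 gene symbol, 1754 several and 12038 none. Members were matched to RefSeq by gene symbol. *EPHB2* and *SEMA4C* had no row of 1 symbol and were not analysed here. Each comparison of 2 groups was fitted to its 6 arrays with limma 3.58.1 (R 4.3.3, lmFit and eBayes) over the rows with 1 symbol, with Benjamini-Hochberg adjustment over them, and the interaction to all 12 arrays. The fit was tested on simulated data.

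The members and the lists were chosen with earlier results of these data known. Named were *LAPTM4B*, every member called in any comparison, all plexins and neuropilins, called partner genes, and the uncalled members with the largest estimate in each direction. Other members and some called partners are given by counts. Deviations of arrays with the same replicate number correlated by 0.37, 0.13 and 0.20 between the siControl media. Between the siRNAs they correlated by 0.39, 0.07 and 0.18 at 0% FBS and by 0.37, 0.15 and -0.08 at 10% FBS. Between the siLAPTM4B media the values were 0.32, 0.13 and -0.17. Whether the numbers pair arrays was not tested. The replicate block, Student's t-test named in the methods for the experiments in general (the methods' t-test), other filters, priors, centring, rows and omission of each array were alternatives. All of these, the t-test included, were called at an adjusted p under 0.05. Few arrays limit the precision. Promoter windows for *EFNB3*, *EPHA10*, *NRP1*, *SEMA3A*, *SEMA6A* and *SEMA6B* were not matched.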

Additional observations from a re-analysis of the deposited data

Results flagged for a closer look

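For *SEMA5A*, knockdown of *LAPTM4B* acted differently in the 2 media by the fitted interaction (-0.39, SE 0.07, limma adjusted p = 0.0403), with every siLAPTM4B array below every siControl array without serum and above with serum. This call was lost under 12 of 18 alternatives (limma adjusted p up to 0.11), and knockdown was called in neither medium on its own. The fall of *LAPTM4B* itself also differed between the media (0.33, limma adjusted p = 0.0345). For *PLXNB2* the siLAPTM4B arrays were all above the siControl arrays without serum (0.06) and all below with serum (-0.09), but the difference of 0.15 was not called (adjusted p = 0.38). For *EFNB1* serum withdrawal went with lower values on all siControl arrays (-0.07) and higher values on all siLAPTM4B arrays (0.09), and the difference of 0.16 was not called (adjusted p = 0.362).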

How the results depend on the processing

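No member changed direction under an alternative where it was called. *LAPTM4B* kept its fall in both media under each alternative run for it. Of 6 member calls without serum, fitting all rows left 1, the methods' t-test 1 and omission of 1 array 1 to 3. The share of fitted rows called went from 2.33% to 0.403%, 0.139% and 0.606% to 1.49% in that order. The t-test was called here at an adjusted p under 0.05, a stricter limit than that of the study. The study's own list without serum, taken at an unadjusted p under 0.01, held all 6 members. Dropping dim rows (28 members left) gave 10, an intensity trend with robust prior 11 and the unadjusted p 11. There the share of fitted rows rose as well, to 9.04%, 5.79% and 6.63%. With the replicate block 7 were called, beside 3.37% of all rows, with *EPHB4* lost (adjusted p = 0.0527) and *EPHA2* and *PLXNA2* added. Median centring gave 6 calls, *EFNA5* lost and *PLXNA2* added, 4 higher and 2 lower in place of 3 and 3. Of 8 calls with serum, all rows left 2, the t-test 1 and omission of 1 array 2 to 3, and the replicate block kept 8. The share of fitted rows called was 0.839%, 0.91%, 1.17% to 2.48% and 4.28% in that order, in place of 4.08%. For serum withdrawal the counts stayed between 21 and 28 in siControl cells (28 with the replicate block, beside 28.8% of all rows). In siLAPTM4B cells they stayed between 18 and 30 (25 with the block, beside 20.6%, with *EPHB6* lost and *SEMA3B* added). Over these settings the share of fitted rows called ranged from 13.5% to 49.2% in siControl and from 10.6% to 41% in siLAPTM4B cells. For the interaction, 1 call became 0 over all rows by limma (with 13 members at an unadjusted p under 0.05 in the fit of rows with 1 symbol), 2 without dim rows, 3 with trend and robust prior, 2 with the replicate block, 4 at the unadjusted p and 0 to 1 without 1 array. The share of fitted rows called was 0.0511%, 1.1%, 0.838%, 0.432%, 3.5% and 0.0976% to 0.262% in that order, in place of 0.262%. Where the number of calls fell on omission of an array there were fewer samples, and otherwise the cause was not tested. Signal over background limits *EPHA3*, *EPHA5*, *EPHA6*, *EPHA7* and *PLXNC1*, and *SEMA6D* without serum.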
